A study of Mus musculus with 8 samples.

Results

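The mitotic deacetylase complex (MiDAC) and its closest relatives were followed as 7 genes named by symbol, of 53647 genes in the count tables: Trerf1, Elmsan1 (newer symbol Mideas), Dnttip1, Hdac1, Hdac2, Hdac3 and Zfp541. RNA came from mouse bone marrow cells sorted as Lin- CD127+, that is, without markers of mature lineages and with the interleukin 7 receptor alpha chain. The libraries KO1 to KO4 carry the genotype label Tref1 -/-, the labels' spelling for the Trerf1 knockout. The libraries WT1 to WT4 are labelled Trerf1 +/+. The labels state neither the age of the mice, nor which exons the allele lacks, nor in which tissues it is deleted, nor whether a library is 1 mouse or a pool, so a p-value here speaks of the spread among libraries, which may be technical.

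Histone deacetylases remove acetyl groups from histone tails and work inside large corepressor complexes. In MiDAC, Hdac1 or Hdac2 is the enzyme, Dnttip1 is the dimeric hub that holds the complex together, and a scaffold protein with an ELM2 and a SANT domain binds the enzyme. Elmsan1, Trerf1 and Zfp541 are the paralogous scaffolds. Zfp541 is known for its part in male meiosis. Hdac3 is the enzyme of the NCoR complexes and not of MiDAC, and it serves here as a related deacetylase outside the complex. Dnttip1 was named for binding terminal transferase (TdT, gene Dntt), the enzyme that adds untemplated bases during antigen receptor assembly in lymphoid progenitors.

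The members lie on different chromosomes, given here with the coordinates of the count tables, whose annotation path names GRCm39. Trerf1 spans chr17:47451801-47672883 on the plus strand, and Elmsan1 spans chr12:84195950-84265655 on the minus strand. Dnttip1 spans chr2:164587903-164610527 (plus), and Zfp541 spans chr7:15795739-15830259 (plus). Hdac1 spans chr4:129409897-129436506 (minus), Hdac2 spans chr10:36850540-36877885 (plus) and Hdac3 spans chr18:38068897-38088069 (minus). Exons of 1 member shared bases with another annotated gene: 227 of 2122 exon bases of Dnttip1 overlap Gm11457 on the opposite strand, which had 4 to 22 counts of its own per library. Reads from these bases cannot be told apart, because the library kit does not mark strand.

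Total read counts were between 32821991 and 66515540 in KO libraries and between 31109744 and 73414626 in WT libraries. KO4, WT2 and WT4 were the deeper libraries, and the other 5 had 31109744 to 36184497 counts each. The sort's own gene Il7r stood at 158 ± 18.5 TPM in KO and 150 ± 18.4 TPM in WT (SD, n = 4 each; TPM is a level per transcript length, scaled to the same sum in each library), and all 10 early lymphoid markers passed the filter on low counts. In the library labelled KO4, Trerf1 stood at 6.54 TPM, against 2.39 to 2.65 TPM in the other KO libraries. The WT libraries had 5.31 to 8.27 TPM. Which exons the allele lacks is not stated, so the labels set no level of Trerf1 RNA to expect. Estimates of Trerf1, Elmsan1 and Hdac2 are also given without KO4, which was picked by its Trerf1 level.

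Hdac1 has near-identical pseudogenes, so its reads are harder to place than those of the other members. Over 1444 aligned bases the Hdac1 transcript and the copy Gm10093 on chromosome 17 differed at 9 bases, with identical runs of up to 450 bases. The stretch of 80 bases that holds the most differences, shown 5′ to 3′ on the transcript strand from GENCODE M21 (GRCm38) with the 6 differing bases in capitals, shows how few positions separate the gene from its copy.
Hdac1: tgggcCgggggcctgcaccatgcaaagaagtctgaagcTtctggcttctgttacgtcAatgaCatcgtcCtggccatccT
Gm10093: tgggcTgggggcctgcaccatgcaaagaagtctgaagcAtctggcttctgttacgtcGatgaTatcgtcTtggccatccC
The copies with at least 90% identity together received reads equal to 1.01% to 1.48% of the Hdac1 counts in KO libraries and 1.07% to 1.31% in WT libraries. These percentages cover reads assigned to a copy. They do not measure how many reads fit both Hdac1 and a copy. Read counts of Hdac1 were 3.26 times its RSEM estimate of fragments, which shares out reads that map to several places, against a median of 4.32 over 9650 well-covered genes, of which 14.6% lay below Hdac1. The ratio was 3.09 to 3.42 in KO libraries and 3.14 to 3.33 in WT libraries, and the part of the copies in it was not tested.

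Levels per transcript length spread over more than 3 orders of size among the members, and the enzymes stood above the scaffolds. TPM divides by transcript length and can be compared between genes. Hdac1 was the most abundant member at 225 ± 8.25 TPM in KO and 226 ± 17.0 TPM in WT (SD, n = 4 each), above 95.3% of all 16352 tested genes by its mean over the 8 libraries. Hdac3 followed at 93.3 ± 3.76 TPM in KO and 95.7 ± 2.40 TPM in WT. Hdac2 was at 16.4 ± 2.47 TPM in KO and 15.3 ± 1.53 TPM in WT. The scaffold gene Trerf1 averaged 3.51 ± 2.02 TPM in KO and 6.997 ± 1.23 TPM in WT. Elmsan1 averaged 3.91 ± 0.650 TPM in KO and 5.53 ± 2.20 TPM in WT, so that the order of these scaffolds by mean differed between the groups. The hub gene Dnttip1 averaged 2.92 ± 0.905 TPM in KO and 3.27 ± 0.555 TPM in WT. By their means over the 8 libraries Trerf1, Elmsan1 and Dnttip1 lay above 40.7%, 39.2% and 33.4% of tested genes.

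Neighbours in this order were compared within libraries on the log2(TPM + 0.1) scale by a two-sided exact sign-flip permutation test over the 8 libraries, adjusted over the 6 pairs. Hdac1 exceeded Hdac3 in 8 of 8 libraries, by 1.25 ± 0.09 (SD) on that scale or 2.39-fold (exact permutation, adjusted p = 0.0117). Hdac3 exceeded Hdac2 in 8 of 8, by 2.58 ± 0.17 or 5.98-fold, and Hdac2 exceeded Trerf1 in 8 of 8, by 1.72 ± 0.85 or 3.29-fold (exact permutation, adjusted p = 0.0117 for each), and by 1.81 without KO4. The size of the difference between Hdac2 and Trerf1 depended on the measure. In read counts per kilobase of exon it was 0.83. On that measure the ranges overlapped, with Hdac2 at 3.19 in KO4 and Trerf1 at 3.54 in WT2. Trerf1 was lower than Elmsan1 in KO1, KO2, KO3 and WT1 and higher in KO4, WT2, WT3 and WT4. The mean difference over all 8 libraries, 0.07 ± 0.65 (exact permutation, adjusted p = 0.781), pools knockout and wild-type libraries and describes neither group. Elmsan1 was above Dnttip1 in 6 of 8 libraries, by 0.56 ± 0.58, with an adjusted p of 0.0563 (exact permutation). With read counts per kilobase of exon in place of TPM that pair passed the threshold (difference 0.58, exact permutation, adjusted p = 0.0188), at a difference of nearly the same size. In TPM it also passed without KO2 or without WT4 (exact permutation, adjusted p = 0.0375 for each). The depth behind Dnttip1 was small, from 19 to 62 estimated fragments a library. In KO3, for example, 19 fragments carry a 95% counting interval of 11.4 to 29.7.

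**Figure D1:**
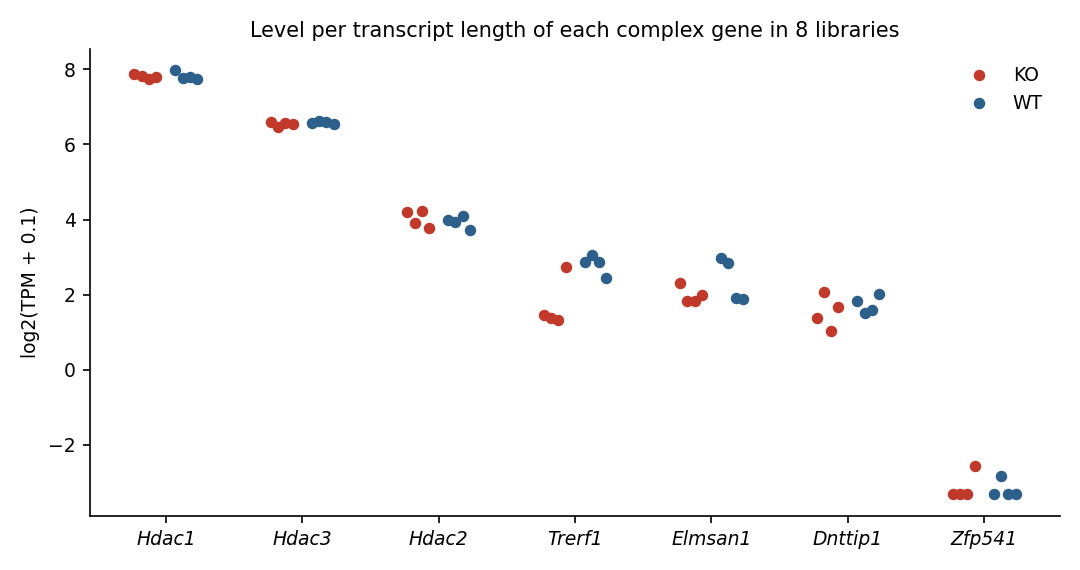
Level of each gene per transcript length, as log2(TPM + 0.1) on the vertical axis, with 1 point per library and KO left of WT. Hdac1, at 214 to 251 TPM, lies above Hdac3, Hdac2 and the scaffold genes in every library, and Zfp541 lies at or near 0 TPM.

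Zfp541, the meiotic scaffold, was at the limit of detection. It had 2, 0, 0 and 14 read counts in KO1 to KO4, against 0, 4, 0 and 0 in WT1 to WT4, and was the member that did not pass the count filter. The RSEM estimate was 3 fragments in KO4, 2 fragments in WT2 and 0 in the other 6 libraries. A count of 0 allows up to 0.0926 CPM, counts scaled to a common library total, in KO2 and 0.0922 CPM in KO3, against 0.0870 CPM in WT1, 0.0920 CPM in WT3 and 0.0428 CPM in WT4, for counting error only. Of 10 germ cell genes, 2 passed the filter: Ddx4, an RNA helicase of germ cells, at 5.90 ± 1.39 TPM in KO and 5.99 ± 1.64 TPM in WT, and Stra8 at 0.290 ± 0.0942 TPM in KO and 0.165 ± 0.188 TPM in WT (SD, n = 4 each). Kctd19, a partner of Zfp541 in the mouse testis, was listed at 0 TPM in all 8 libraries. Its read counts gave means of 0.0264 CPM in KO and 0.0290 CPM in WT, against 0.0667 and 0.0152 CPM for Zfp541.

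Trerf1 itself had the lower mean in KO, short of the threshold over all genes, and the library labelled KO4 stood apart from the other KO libraries. TMM-scaled CPM compare libraries for a given gene. Trerf1 had 13.4, 12.8, 12.1 and 22.1 CPM in KO1 to KO4, against 29.0, 32.1, 27.1 and 22.3 CPM in WT1 to WT4. KO1, KO2 and KO3 lay well below every WT library, and KO4 lay just under WT4. The log2 fold change was -0.87 ± 0.20 (SE), a ratio of 0.548 with a 95% interval from 0.401 to 0.750. It had an unadjusted p of 0.00151 and an adjusted p of 0.999 over all genes in edgeR's quasi-likelihood test. Without KO4 the log2 fold change was -1.11 (adjusted p 0.295, edgeR), and with KO4 and WT4 both left out it was -1.20 and passed the threshold (adjusted p 0.0473, edgeR). KO4 is the KO library with the most Trerf1 and WT4 the WT library with the least. Leaving them out widens the difference by the choice of libraries, so that pass is not separate support for it. In RSEM's TPM the groups overlapped: the KO libraries had 2.65, 2.48, 2.39 and 6.54 TPM, against 7.22, 8.27, 7.19 and 5.31 TPM in WT. KO4 thus lay above WT4 on that scale. In bulk RNA, fewer cells that express a gene and less RNA per cell cannot be told apart.

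**Figure D2:**
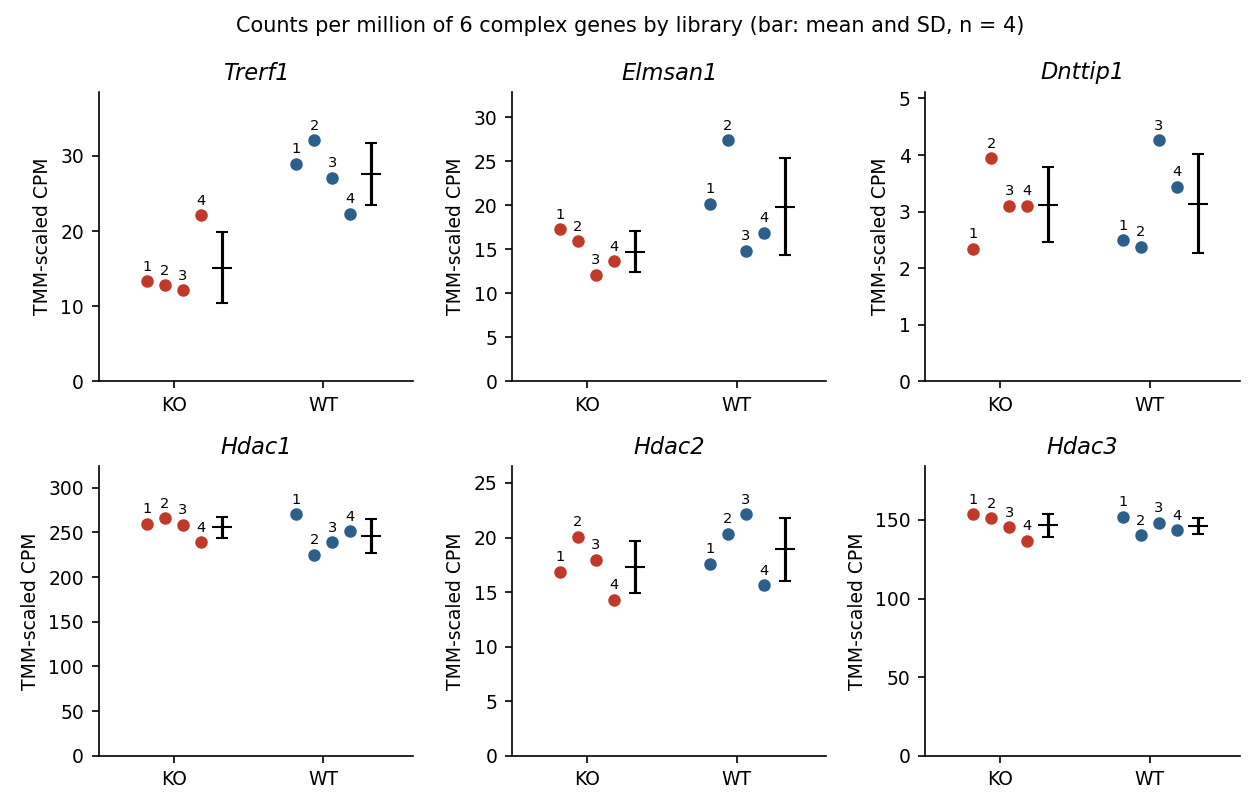
TMM-scaled CPM of the 6 genes that passed the count filter, 1 point per library with its replicate number, KO left of WT, and the mean with SD (n = 4) beside each group. Trerf1 sits at 12.1 to 13.4 CPM in KO1 to KO3 and at 22.1 to 32.1 CPM in KO4 and the WT libraries, and the other 5 genes overlap between groups.

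Of the 6 members tested, 0 passed an adjusted p of 0.05, as for all genes, where 0 of 16352 (0%) were called by edgeR, and 0 likewise by DESeq2 and by limma-voom. At an unadjusted p under 0.05, Trerf1 was the single member in edgeR's test, lower in KO, against 1.97% of all genes in either direction and 0.93% in that direction. Elmsan1 was also under that level by DESeq2 (unadjusted p 0.0390) and by limma-voom (unadjusted p 0.0401), and in edgeR's test with no filter on low counts (0.0352) or without KO1, WT3 or WT4 (0.0209 to 0.0441). Trerf1 was also the single member whose groups did not overlap in CPM, against 0.544% of all genes with every KO library below every WT library, 0.74% with every KO library above and 1.28% in either direction. Members with estimates below 0 numbered 4 of 6, and their median log2 fold change was -0.07 (-0.03 without KO4), against 48.3% and a median of 0.01 over all genes.

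Elmsan1 was the other scaffold paralogue detected in these cells. It had 17.3, 15.9, 12.1 and 13.7 CPM in KO1 to KO4, against 20.2, 27.4, 14.8 and 16.9 CPM in WT1 to WT4. KO3 and KO4 lay below all WT libraries, whereas KO1 and KO2 lay within the WT range, and WT2 was the highest of the 8. Elmsan1 averaged 14.8 ± 2.31 CPM in KO and 19.8 ± 5.51 CPM in WT (SD, n = 4 each). For KO over WT the log2 ratio was -0.43 ± 0.20 (SE), with an unadjusted p of 0.0573 and an adjusted p of 0.999 in edgeR's test. The 95% interval of the ratio ran from 0.546 to 1.01, so that a KO level more than 1.01 times that of WT lay outside it. Without KO4 the log2 fold change was -0.39, without WT2 it was -0.24, and in the 5 shallower libraries it was -0.21, while in RSEM's expected counts it was -0.29. The size of the estimate therefore rests in part on WT2.

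The share of Trerf1 in the scaffold level was lowest in KO1, KO2 and KO3. In TPM, Trerf1 made up 35.3%, 41.5%, 40.9% and 62.5% of the summed Trerf1, Elmsan1 and Zfp541 level in KO1 to KO4, against 48.1%, 54.0%, 66.1% and 59.7% in WT1 to WT4. Elmsan1 was thus the more abundant scaffold in KO1, KO2, KO3 and WT1, and Trerf1 in KO4, WT2, WT3 and WT4. The summed level of the scaffolds was 7.50, 5.97, 5.85 and 10.5 TPM in KO1 to KO4, against 15.02, 15.3, 10.9 and 8.90 TPM in WT1 to WT4. KO1 to KO3 lay below every WT library in this sum, and KO4 lay above WT4. In read counts per kilobase of exon the sum was 2.93 to 4.28 in KO libraries and 4.68 to 7.15 in WT libraries, without overlap. Trerf1 is part of the sum, and its own CPM did not overlap between groups, while those of Elmsan1 did. The lower sum in KO thus in part restates the lower Trerf1. The mean share was 45.1% ± 12.0 in KO and 56.9% ± 7.72 in WT (SD, n = 4 each). It was 45.5% ± 8.15 in KO and 54.3% ± 4.66 in WT with read counts per kilobase of exon. The KO mean minus the WT mean was -11.9 percentage points in TPM, and -17.7 points without KO4. These shares are given without a test, because the members were chosen with earlier results known.

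**Figure D3:**
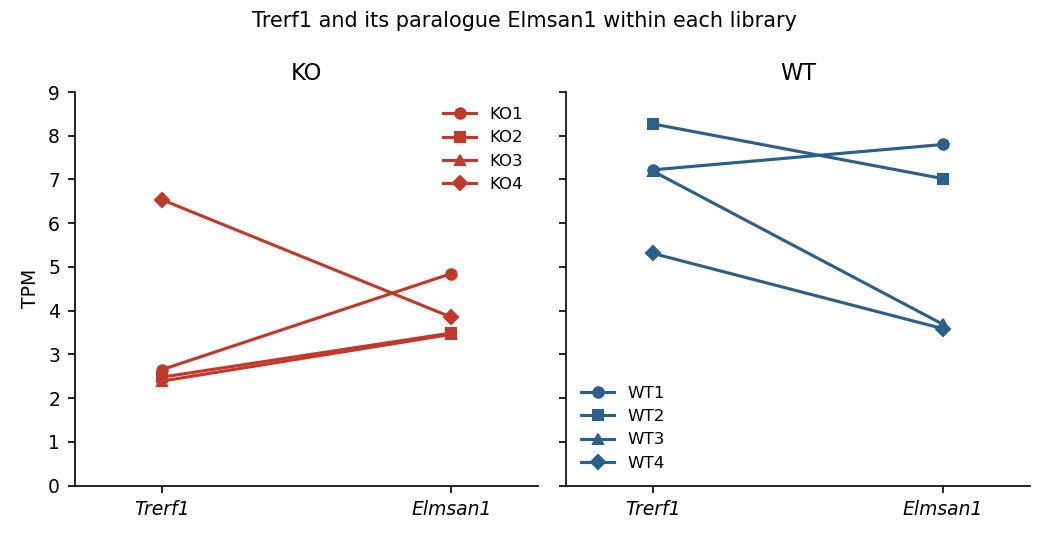
TPM of Trerf1 and of its paralogue Elmsan1 joined by a line within each library, KO libraries in the left panel and WT libraries in the right. In KO1 to KO3 the line goes up from Trerf1, at 2.39 to 2.65 TPM, to Elmsan1, at 3.46 to 4.85 TPM, and in KO4, WT2, WT3 and WT4 it goes down.

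Dnttip1, the hub subunit, had 2.34, 3.95, 3.10 and 3.11 CPM in KO1 to KO4, against 2.49, 2.38, 4.26 and 3.44 CPM in WT1 to WT4. The groups covered nearly the same range, from the low values of KO1 and WT2 to the high ones of KO2 and WT3. The estimate of KO over WT was -0.01 ± 0.27 (SE) on the log2 scale (adjusted p 0.999, edgeR). Its 95% interval covered ratios from 0.658 to 1.51, the widest of the 6 members tested, from 84 to 241 read counts per library. Ratios within those bounds could not be told from 1 with these libraries.

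The deacetylases were measured more tightly. Hdac1 had 260, 266, 259 and 239 CPM in KO1 to KO4, against 270, 225, 239 and 251 CPM in WT1 to WT4. KO1, KO2 and KO3 lay close together and KO4 below them, all within the WT range. KO over WT gave 0.06 ± 0.09 (SE) on the log2 scale (adjusted p 0.999, edgeR), and the 95% interval of the ratio was 0.910 to 1.19.

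Hdac2, the other MiDAC enzyme, had 16.9, 20.1, 17.95 and 14.3 CPM in KO1 to KO4, against 17.6, 20.3, 22.1 and 15.6 CPM in WT1 to WT4. KO4 and WT4 were the lowest of their groups, and the groups overlapped. On the log2 scale KO over WT gave -0.13 ± 0.15 (SE; adjusted p 0.999, edgeR), and -0.05 without KO4, and the interval of the ratio with all libraries was 0.721 to 1.16. Hdac1 made up 92.0% to 94.2% of the summed Hdac1 and Hdac2 TPM in KO libraries and 92.9% to 94.2% in WT libraries, so the balance of the enzyme paralogues covered nearly the same range in both groups.

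Hdac3, the deacetylase outside MiDAC, had 154, 151, 145 and 137 CPM in KO1 to KO4, against 152, 140, 148 and 144 CPM in WT1 to WT4. The groups overlapped, and the coefficient of variation was 5.02% in KO and 3.6% in WT. Its log2 ratio of KO over WT was 0.01 ± 0.08 (SE; adjusted p 0.999, edgeR), and the interval of the ratio was 0.893 to 1.13, the narrowest of the 6.

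**Figure D4:**
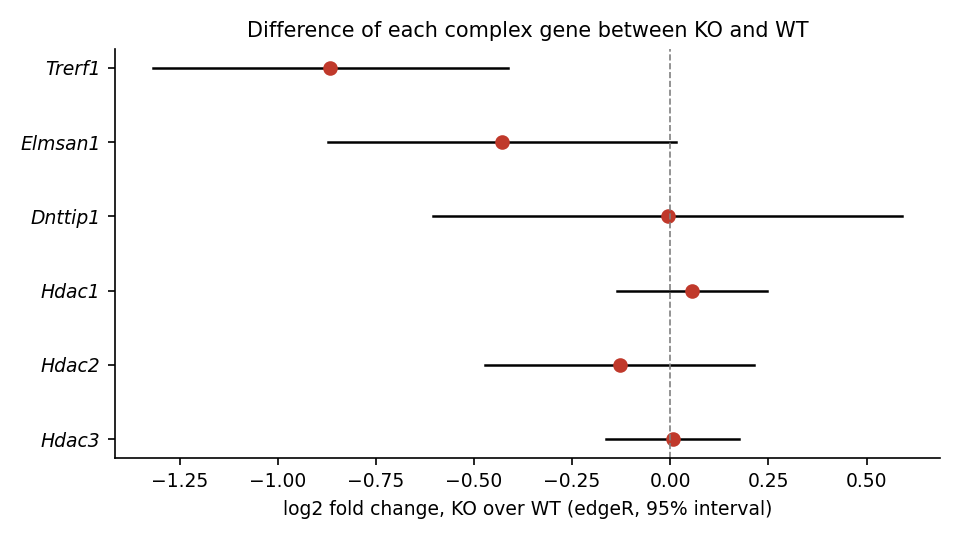
Log2 fold change of KO over WT from edgeR's quasi-likelihood fit (points) with its 95% interval (lines) for the 6 members tested, and a dashed line at 0. The interval of Trerf1 lies below 0, that of Elmsan1 reaches just above 0, and those of Dnttip1, Hdac1, Hdac2 and Hdac3 lie on both sides.

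The mix of isoforms gave a readout apart from the level. RSEM reports for each gene a transcript length weighted by the estimated abundance of its isoforms, which moves when the mix changes. For Trerf1 this length was 5626, 5462, 4775 and 4589 bases in KO1 to KO4, against 4604, 4814, 4546 and 4888 bases in WT1 to WT4. KO1 and KO2 lay above every WT library, and KO3 and KO4 lay within the WT range. The 5 Trerf1 transcripts annotated in GENCODE M21 have 3255 to 7045 bases. The mean was 5113 ± 508 bases in KO and 4713 ± 164 bases in WT (SD, n = 4 each). The difference was smaller than the SD in KO (two-sided exact permutation, unadjusted p = 0.286, adjusted p = 0.571 over 6 members). KO minus WT was 400 bases with all libraries and 575 bases without KO4, where 3 against 4 libraries cannot give an unadjusted p below 0.0571. The estimates in KO1, KO2 and KO3 rest on 100, 83 and 70 fragments. The other 5 members had adjusted p values of 0.571 to 0.857 in the same exact permutation test. The smallest unadjusted p that 4 against 4 libraries can give is 0.0286, before adjustment over 6 members.

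In 1 library the length of Elmsan1 bears on its level. Elmsan1 had a weighted length of 2752 bases in WT1, against 4245 to 5112 bases in the other 7 libraries. Its TPM in WT1, 7.80, was the highest of the 8 libraries, while its CPM there, 20.2, was below the 27.4 CPM of WT2. The scaffold shares of WT1 in TPM therefore rest on this isoform estimate. In read counts per kilobase of exon, Trerf1 made up 54.6% of the scaffold sum in WT1, so there Trerf1 was the higher, and 49.5% in WT2, where Elmsan1 was the higher.

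The genes of other complexes that use the same enzymes gave a frame for these values. The 10 lists taken here apart from the members hold 106 genes, of which 88 were tested. Of these, 0 passed an adjusted p of 0.05, and at an unadjusted p under 0.05 there was 1 higher (Brms1l) and 1 lower (Mta3) in KO, against 1.04% and 0.93% of all genes. The median log2 fold change over the 88 genes was 0.03, against 0.01 over all genes.

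Other proteins with ELM2 and SANT domains, which carry Hdac1 and Hdac2 in complexes other than MiDAC, ranged from 3.84 TPM in KO and 4.12 TPM in WT for Rcor2 to 229 TPM in both groups for Mta2. Mta2, a NuRD scaffold, stood at 229 ± 4.87 TPM in KO and 229 ± 11.1 TPM in WT, and Mta3 at 178 ± 41.6 TPM in KO and 245 ± 55.8 TPM in WT (SD, n = 4 each). The CoREST scaffold Rcor1 stood at 8.03 ± 1.45 TPM in KO and 7.70 ± 1.66 TPM in WT. Of the 10 genes, 5 had estimates above and 5 below 0, with a median log2 fold change of 0.00. Mta3 had the smallest p of them, with a log2 fold change of -0.38 ± 0.16 (SE), an unadjusted p of 0.0340 and an adjusted p of 0.999 in edgeR's test. Mier2 had -0.34 ± 0.22 and Rere, a corepressor of the atrophin family, -0.26 ± 0.13.

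Subunits of the NuRD, Sin3, CoREST and NCoR complexes lay close to 0 as lists. Of 12 tested NuRD subunits, 7 had estimates above 0 (median log2 fold change 0.03), with Gatad2b at -0.25 ± 0.15 and Gatad2a at -0.12 ± 0.08 (SE). Gatad2a was the single gene of the 88 whose groups did not overlap, at 60.3 ± 1.603 CPM in KO and 65.7 ± 1.21 CPM in WT (SD, n = 4 each), against 0.544% of all genes in that direction. Of 18 Sin3 subunits, 12 had estimates above 0 (median 0.03). Brms1l had a log2 fold change of 0.26 ± 0.11, Ing1, a reader of methylated histone H3, 0.21 ± 0.13, and the histone chaperone Rbbp7 0.10 ± 0.08.

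Of 10 CoREST subunits, 5 had estimates above 0 (median 0.00). Gse1 had -0.31 ± 0.17 and the demethylase Kdm1a 0.16 ± 0.16. Of 5 NCoR subunits, which carry Hdac3, 2 had estimates above 0 (median -0.02), with Tbl1x at 0.07 ± 0.08 and Gps2 at -0.03 ± 0.09. In these 4 lists 0 genes were called by edgeR.

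Among 15 other deacetylases, classes beyond that of Hdac1 and the sirtuins included, 10 had estimates above 0, with a median of 0.03. Hdac8 had a log2 fold change of 0.20 ± 0.13, Sirt4 0.13 ± 0.13 and Hdac5 -0.17 ± 0.18 (SE). Of 10 histone acetyltransferases, which oppose the deacetylases, 7 had estimates below 0 (median -0.06), with Kat6a at -0.26 ± 0.12, Kat6b at -0.23 ± 0.14 and Kat2a at -0.22 ± 0.17. Again 0 passed an adjusted p of 0.05 in edgeR's test.

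**Figure D5:**
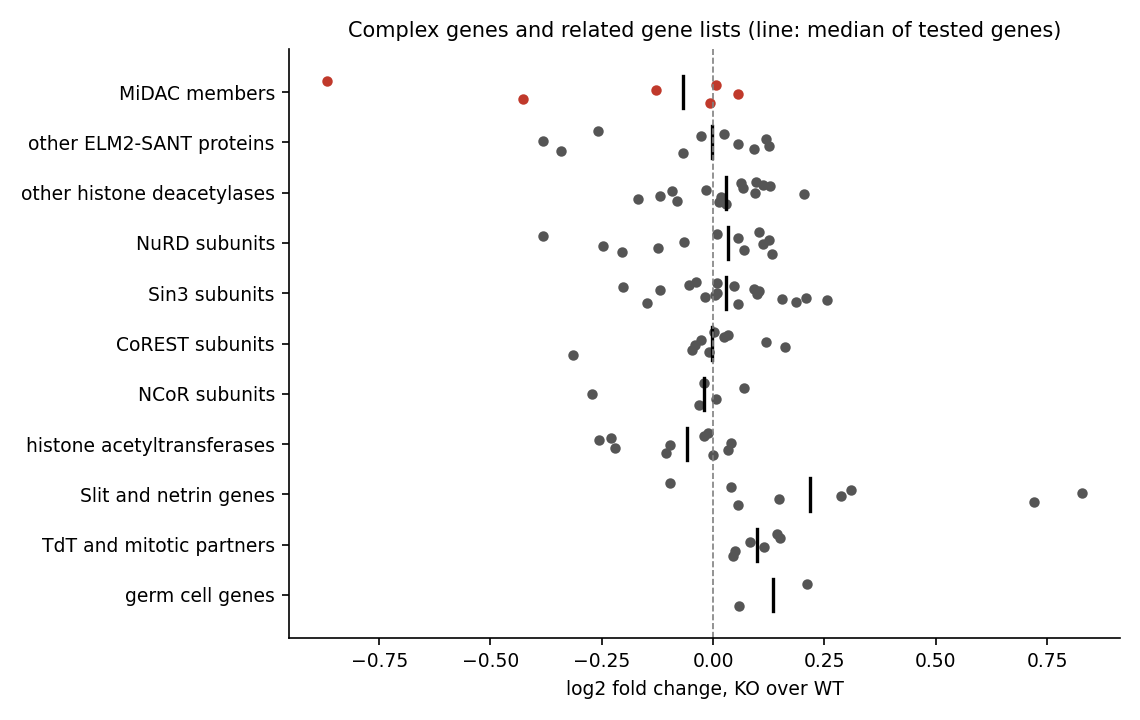
Log2 fold change of KO over WT of every tested gene in the complex (red) and in 10 related lists (grey), with the median of each list as a short line and 0 as a dashed line. Trerf1, at -0.87, and Elmsan1, at -0.43, are the lowest points of the plot.

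Genes tied to MiDAC by other work were also measured. In mouse embryonic stem cells MiDAC is known for its effect on the axon guidance genes Slit3 and Ntn1. Slit3 had no counts in any of the 8 libraries, and Ntn1, at 0.163 CPM in KO and 0.265 CPM in WT, did not pass the count filter. Of the 8 tested genes among 17 Slits, netrins and their receptors, 7 had estimates above 0 (median 0.22, and 0.08 without KO2). With no filter on low counts 9 of 14 had estimates above 0, with a median of 0.09. Robo4, an endothelial and stem cell receptor, had a log2 fold change of 0.83 ± 0.65 and Ntn3 one of 0.72 ± 0.44 at 0.382 CPM in KO and 0.221 CPM in WT.

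All 6 genes of the list of TdT and mitotic partners had small estimates above 0 (median 0.10). Without KO2 the split was 3 above and 3 below 0 (median -0.0019), and without WT4 it was also 3 and 3 (median 0.05). The estimates with all libraries included Dnttip2 at 0.15 ± 0.11, the replication clamp gene Pcna at 0.14 ± 0.11 and Cdk2 at 0.11 ± 0.09 (SE). Dntt itself, at 1267 ± 469 TPM in KO and 1263 ± 515 TPM in WT (SD, n = 4 each), was more abundant than Hdac1 in every library. None of these genes passed an adjusted p of 0.05 in edgeR's test.

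Genes with the most similar profiles were found by the Pearson coefficient of log2 CPM over the 8 libraries, among 12497 genes, as a description. For Trerf1 these were Nisch (0.945), Ccdc88c (0.933) and Pln (0.932). Pln lay near the limit of detection, at means of 0.296 CPM in KO and 0.589 CPM in WT, so its coefficient rests on few reads. Nisch had 207, 215, 213 and 249 CPM in KO1 to KO4, against 275, 288, 263 and 227 CPM in WT1 to WT4, and like Trerf1 it was higher in KO4 than in the other KO libraries and lowest in WT4 among the WT libraries. For Elmsan1 they were Mnt (0.963), a repressor of MYC targets, and Epn1 (0.963). Mnt had 13.1, 12.8, 10.1 and 10.7 CPM in KO1 to KO4, against 21.4, 27.7, 12.5 and 13.3 CPM in WT1 to WT4, with WT2 the highest as for Elmsan1. For Dnttip1 they were Psph (0.966), Top3b (0.956) and Tmc4 (0.952). The 8 points share their library and depth, and the coefficients carry no test.

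Markers of other cells varied between libraries too. The 7 mast cell and basophil markers summed to 49.6 to 380 CPM in KO libraries and 52.1 to 314 CPM in WT libraries, with KO4 and WT4 the highest of their groups and Mcpt1 at 0. The 7 monocyte and macrophage markers, 6 of them past the count filter, summed to 412 to 574 CPM in KO and 300 to 458 CPM in WT. The 8 neutrophil markers summed to 161 to 328 CPM in KO and 184 to 272 CPM in WT, and the 10 erythroid markers to 607 to 721 CPM in KO and 503 to 990 CPM in WT. The 7 T cell markers summed to 393 to 531 CPM in KO and 355 to 435 CPM in WT, and the 7 plasmacytoid dendritic cell markers to 7401 to 8705 CPM in KO and 6506 to 10910 CPM in WT. The 10 innate lymphoid markers summed to 417 to 679 CPM in KO and 467 to 991 CPM in WT. The 8 mature B and plasma cell markers summed to 909 to 1072 CPM in KO and 733 to 1279 CPM in WT. Each of these sums overlapped between groups. Single genes carried much of some sums. Tfrc, the erythroid marker with an estimate above 0 (0.14), averaged 536 CPM in KO and 485 CPM in WT. The neutrophil marker Mpo averaged 226 CPM in KO and 212 CPM in WT. Lck and Cd4 averaged 278 and 137 CPM in KO and 241 and 111 CPM in WT. The erythroid, neutrophil and T cell sums therefore say little of the other markers in their lists. All 7 tested neutrophil markers had estimates above 0 (median log2 fold change 1.33), but without KO1 they numbered 3 above and 4 below 0 (median -0.65), and with limma-voom the median was 0.06. Of the 10 erythroid markers, 9 had estimates below 0 (median -0.96), but without WT1 there were 7 above 0 (median 0.14). Of the 10 innate lymphoid markers, 6 had estimates below 0 (median -0.18), but without WT3 there were 6 above 0 (median 0.10). All 6 tested monocyte markers had estimates above 0 (median 0.38), and the median was 0.35 without KO1. Of the 7 T cell markers, 6 had estimates above 0 (median 0.38), and 5 without KO1 (median 0.47). Of the 7 tested mature B and plasma cell markers, 6 had estimates above 0 (median 0.17), and 4 with Xist class as covariate (median 0.09). Among them Jchain had 1.03 ± 0.32 (SE), with an unadjusted p of 0.00843 and an adjusted p of 0.999 in edgeR's test. Xbp1 had 0.04 ± 0.21, and Prdm1, at 0.435 CPM in KO and 0.8325 CPM in WT, had -0.90 ± 0.585. At an unadjusted p under 0.05 in edgeR's test, 2 monocyte markers were higher in KO. So was 1 marker each of the neutrophil, T cell, and mature B and plasma cell lists, against 1.04% of all genes. The part of these cells in the levels of the members was not tested.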

How the data were processed

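RNA was measured in 8 libraries (4 KO, 4 WT), made from 200 ng of total RNA with a low-input kit that does not mark strand, per the labels' protocols. The authors deposited a read count per gene from featureCounts 1.6.4, run at defaults on 4 threads per the file headers. The deposited RSEM tables (RSEM 1.3.1, STAR 2.6.0a and Picard 2.19, per the submitters' processing notes) hold the authors' expected counts, TPM and FPKM. The notes name mm10, but the count files' annotation path names GRCm39. Of 53647 identifiers, 52093 (97.1%) matched a symbol.

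The main test on counts was edgeR 4.0.16 under R 4.3.3 (filterByExpr, TMM, quasi-likelihood F test, no covariate, Benjamini-Hochberg over 16352 genes, threshold 0.05), with steps tested on simulated data. SE is size over the square root of F, and intervals are 95%. Members and lists were chosen with earlier results of these data known. Besides the members, the text names up to 3 genes with the smallest p per list, copies and overlapping genes of members, the 3 most similar profiles of Trerf1, Elmsan1 and Dnttip1, and Il7r and Dntt for the sort. Mta2, Rcor2, Slit3, Ntn1, Kctd19 and the markers Tfrc, Mpo, Lck, Cd4, Jchain, Xbp1 and Prdm1 were added after their values were seen. Of the genes this rule names, 2 are not reported here. Alternatives were other scaling and filters, DESeq2 1.42.0, limma 3.58.1 (voom with quality weights), a block for replicate number, rounded expected counts, Xist class as covariate, and libraries left out. Proteins were not used here.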

Additional observations from a re-analysis of the deposited data

Results flagged for a closer look

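In groups of 4 libraries a value was looked at again where its gap to the nearest library, divided by the range of the group, exceeded Dixon's 95% critical value. For values with a normal spread, chance gives that in about 1 of 20 groups. Of 40 groups of member values, 4 were picked out. Trerf1 in KO4 stood at 22.1 CPM, against 12.1 to 13.4 CPM in the other KO libraries, and likewise at 6.54 TPM against 2.39 to 2.65 TPM. Its CPM and TPM come from the same library and are not separate picks. The weighted length of Dnttip1 was 1535 bases in KO2 and 1279 bases in WT4, against 1664 bases in the other KO libraries and 1662 to 1664 bases in the other WT libraries. Where the other lengths are this nearly equal, any departure is picked out, so the rate of 1 in 20 does not hold for them. The estimates of Dnttip1 in KO2 and WT4 rest on 36 and 62 fragments.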

How the results depend on the processing

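Across the alternatives, Trerf1, Elmsan1, Hdac1 and Hdac2 kept the direction of their log2 fold changes. With KO4 and WT4 both left out, 12 genes passed in place of 0, Trerf1 among them (-1.20, adjusted p 0.0473, edgeR). For Trerf1 these are the highest KO and the lowest WT library, so its pass is not separate support. No other alternative called a gene, and 0 genes of the 10 related lists were called under any alternative. Without 1 library at a time the log2 fold change ranged from -1.11 to -0.78 for Trerf1, -0.55 to -0.24 for Elmsan1, -0.14 to 0.17 for Dnttip1, 0.01 to 0.09 for Hdac1, -0.21 to -0.05 for Hdac2 and -0.023 to 0.0383 for Hdac3, and 0 genes were called. Genes at an unadjusted p under 0.05 (edgeR) numbered 168 without WT2, 978 without KO4 and 1016 without WT4, in place of 322. Dnttip1 turned to 0.0332 with limma-voom, 0.0085 with the replicate block, 0.0539 with Xist class as covariate and 0.0439 with KO4 and WT4 left out. Hdac3 turned to -0.0242 with library size alone, -0.0059 without a filter, -0.0064 at a mean CPM of at least 1, -0.0085 with expected counts and -0.0021 in the 5 shallower libraries. The cause was not tested.

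KO1 and WT1 deviated together over all genes (Pearson coefficient 0.362), as did KO2 and WT2 (0.309). KO4 had a higher coefficient with WT3 (0.159) than with WT4 (0.119). KO3 had -0.031 with WT3 and its highest, 0.204, with WT4. The numbers were therefore not taken to pair the libraries. With the replicate block 0 genes passed, 634 had an unadjusted p under 0.05 in place of 322, and Elmsan1 had -0.40 (unadjusted p 0.0171, adjusted p 0.936, edgeR).

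In the order of levels, Elmsan1 over Dnttip1 passed with counts per kilobase (0.58, exact permutation) and ranged from 0.45 to 0.67 without 1 library, passing without KO2 or WT4. Trerf1 over Elmsan1 ranged from -0.05938 to 0.1966. The Hdac1 share differed by -0.44 percentage points (KO minus WT) in TPM and 0.70 in counts per kilobase. Weighted lengths without 1 library differed by -261 to 526 bases for Elmsan1 and -31.4 to 97.0 bases for Dnttip1, and with KO4 and WT4 left out by -42.1 bases for Dnttip1 and 3.07 bases for Hdac3. Depth limits Zfp541 (0 to 14 counts); for Dnttip1 (84 to 241 counts) counting error was not separated from the spread between libraries.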
